A study of Gossypium barbadense with 48 samples.

Results

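Fiber of the American cotton cultivar PimaS-7 (Gossypium barbadense) at 20 days post anthesis (DPA) was compared with fiber of the same cultivar at 15 DPA. The members were the 3 libraries labelled PimaS-7 at day 20 and the 3 labelled PimaS-7 at day 15, which is 6 of the 48 libraries of the series. The series followed 2 cultivars, PimaS-7 and 5917, over 8 stages, every 5 days up to 35 DPA, with 3 libraries each. Ovules were taken on the day of flowering and fiber from then on, and no group carried a treatment or a transgene. The methods name 2 plants of the parents and 3 biological replicates without saying whether each replicate came from its own plant, so that the p-values below measure the spread between these libraries only. Of the 69337 genes listed, 46299 had enough reads in the 6 libraries to be tested.

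A cotton fiber is a single epidermal cell of the seed coat. It first elongates behind a thin primary wall rich in pectin and xyloglucan and covered by a cuticle, and then lays down a thick secondary wall of nearly pure cellulose. In the transition between these phases the cellulose microfibrils are wound around the cell along cortical microtubules, which are polymers of alpha and beta tubulin held in order by associated proteins. Secondary walls in other plants are switched on by NAC and MYB transcription factors, and their xylan is acetylated by proteins of the trichome birefringence-like family.

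The libraries held 31715429 to 32862407 counts at 20 DPA and 31860469 to 39420211 at 15 DPA. Pearson's r of log2(FPKM + 1), which runs across genes and not across replicates, lay between 0.9769 and 0.9812 for pairs within a stage and between 0.9421 and 0.9709 for pairs across the stages. Of the 20 DPA libraries, replicate 3 lay nearest to the 15 DPA libraries, with r of 0.9617 to 0.9709, and replicate 1 farthest, with 0.9421 to 0.9549. Marker lists of other tissues were summed. The summed level of the cell cycle and histone list was 70.9 to 87.9 CPM (counts scaled to library size, with TMM factors) at 20 DPA and 65.1 to 80.1 CPM at 15 DPA, against 210.0 to 219.0 CPM in PimaS-7 ovules, and 1 of its 16 genes was at 0 in the 6 libraries. The seed and embryo list summed to 1.88 to 2.65 CPM at 20 DPA and 2.24 to 3.5 CPM at 15 DPA, against 5.14 to 9.68 CPM in ovules. The photosynthesis list summed to 4.88 to 7.1 CPM at 20 DPA and 2.7 to 4.3 CPM at 15 DPA, against 2.51 to 4.39 CPM in ovules. Its sum was higher still later in PimaS-7, at 8.24 to 21.3 CPM at 25 DPA and 13.2 to 16.2 CPM at 30 DPA. The part of green tissue in the results was not tested. Fewer cells of a type and less RNA per cell cannot be told apart in such samples.

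Some libraries of the other cultivar went against the order of their labels. The mean profile of the 5917 libraries labelled 20 DPA had an r of 0.94 with 5917 at 10 DPA and of 0.852 with 5917 at 25 DPA, and that of the libraries labelled 15 DPA had 0.925 and 0.863, so that those labelled 20 DPA lay nearer to the earlier stage. In PimaS-7 the order was that of the labels, with 0.914 and 0.928 for 20 DPA and 0.956 and 0.878 for 15 DPA. The main test between the PimaS-7 stages did not use those libraries. They enter the comparison with 5917 at the end, the fit of all 48 libraries, the scaling of the printed CPM and the modules of the study. Whether their labels were exchanged was not tested.

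The study designed primer pairs for 5 genes it chose for follow-up among interval genes that were also in its coexpression modules, and 3 of them carry the microtubule result below. Their pairs are shown, 5′ to 3′, to identify the transcripts in question.
WDL2 forward, chromosome D11: aagagcaacaagcagccatt
WDL2 reverse, chromosome D11: acatcaccgcagctctttct
TUBB1 forward, chromosome D08: tcccggggttcacaacaata
TUBB1 reverse, chromosome D08: ccttggtgctcattttgcct
SP1L2 forward, chromosome D08: tagaggtgggagctacggag
SP1L2 reverse, chromosome D08: ctgtccttgagccctatggt
Each primer is 20 bases long. None of the values below came from these primers.

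Between the stages 1362 genes were higher and 1252 lower at 20 DPA, which is 2.94% and 2.70%, and 5.65% together, of the genes tested. A call needed an adjusted p of 0.05 or less in edgeR's quasi-likelihood test and a fold change of 1 log2 unit or more in either direction. The genes called higher took 3.83 to 5.13% of the counts of a 20 DPA library and 1.17 to 1.54% of a 15 DPA library, and the genes called lower took 1.06 to 1.4% and 3.27 to 3.95%. The genes called higher had a median level of 4.13 FPKM (fragments scaled to gene length and library size) at 20 DPA and 1.07 FPKM at 15 DPA, those called lower 1.09 FPKM and 3.62 FPKM, and all genes tested 2.24 FPKM and 2.25 FPKM. A change of at least 3 log2 units was found for 301 of the genes called higher and 139 of those called lower. At least 100 CPM was reached by 105 of the genes called higher at 20 DPA and by 26 of them at 15 DPA, and by 23 and 78 of the genes called lower.

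Both subgenomes took part. On A chromosomes 3.2% of the genes tested were higher and 2.78% lower, on D chromosomes 3.03% and 2.87%. Of 3943 tested genes with identifiers outside the chromosome series, assembled from the reads,, 1.14% were higher and 1.37% lower. By chromosome the share called higher ran between 2.15% on D13 and 3.95% on A02, and the share called lower between 2.08% on D03 and 3.67% on D13.

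Some genes were read at 1 stage only. Of the genes called higher, 33 had no count in any 15 DPA library, and of those called lower, 25 had none in any 20 DPA library. Gbar_D04G014000 had 29.3, 28.6 and 2.46 CPM at 20 DPA, against 0 CPM in each 15 DPA library, and was at least 625-fold higher when the 15 DPA group is given 3 counts in all as its floor. Gbar_A04G009370 had 21.3, 14.6 and 0.993 CPM at 20 DPA and was likewise at 0 CPM at 15 DPA, at least 386-fold. In both genes the third 20 DPA library stood far below the other two. The call of Gbar_D04G014000 was lost without 20 DPA replicate 2 (adjusted p = 0.055), and that of Gbar_A04G009370 without any single library other than 20 DPA replicate 3 (adjusted p = 0.058 to 0.079). In the other direction Gbar_A08G023030 was at 0 CPM in the 20 DPA libraries and had 33.5, 25.6 and 24.1 CPM at 15 DPA, which is at least 758-fold lower. Gbar_D06G010680 was at 0 CPM at 20 DPA and had 14.5, 15.5 and 10.7 CPM at 15 DPA, at least 372-fold lower. No name for these 4 genes was held.

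Gene names were held for the mapped intervals on chromosomes D03, D08 and D11 only, as matches in other species, so the genes named below are those of the intervals and not whole families. Of 1096 genes with a description that were tested, 46 were higher and 27 lower, or 4.2% and 2.46%. From 22 functional lists with 277 members, 173 members were tested, and 18 were higher and 8 lower. Over all genes tested 2.94% were higher and 2.70% lower, and each list count below is to be read against these shares. Lists and members were chosen with earlier results of these data known, so the counts are no evidence that a function changed more than others. Reads that match both subgenome copies of a gene, or close relatives such as the tubulins, could be counted for either, since their assignment is not stated.

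**Figure D1:**
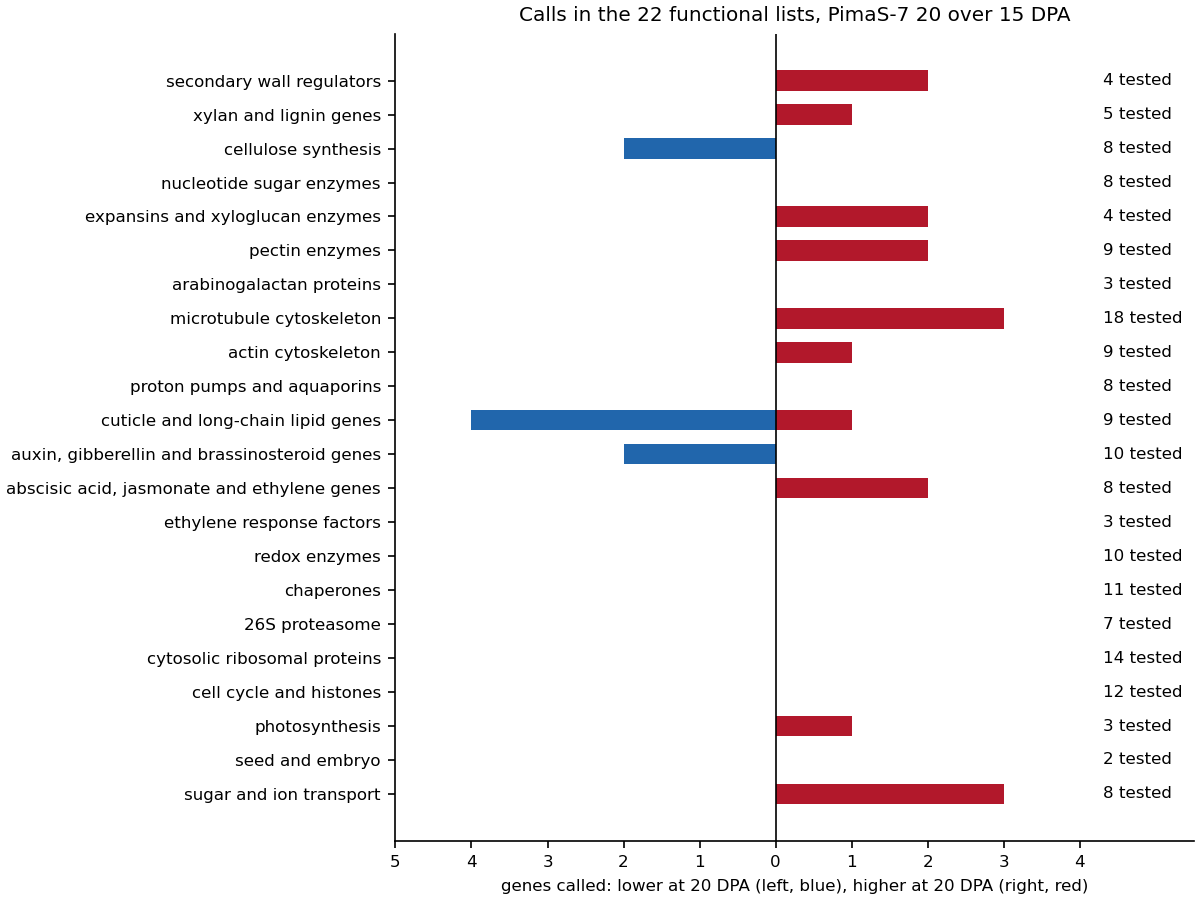
Number of genes called lower (blue, left) and higher (red, right) at 20 DPA than at 15 DPA in PimaS-7, for each of 22 functional lists, with the number tested beside each bar. The microtubule list has 3 genes higher and 0 lower of 18 tested, and the cuticle and lipid list 1 higher and 4 lower of 9. Over all genes tested 2.94% were higher and 2.70% lower.

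Of 6 listed regulators of the secondary wall 4 were tested, and MYB86 and MYB61 were higher at 20 DPA with 0 lower, with a median log2 fold change of 1.31 against 0.01 over all genes tested. MYB86 (D08, 41848635 to 41850759, build HAU v2.0), a MYB factor, had 38.5, 36.9 and 16.4 CPM at 20 DPA, against 0, 0 and 0.089 CPM at 15 DPA. It was thus almost unread at the earlier stage, where the 3 libraries held 3 counts together, and the ratio of the stages was 949 with a 95% counting interval of 324 to 4610. MYB61, which in Arabidopsis acts on wall and mucilage genes, had 5.66, 4.13 and 4.23 CPM at 20 DPA and 1.3, 1.7 and 0.593 CPM at 15 DPA (log2 fold change 1.96, SE 0.38, adjusted p = 0.019). Its groups did not overlap, as for 30.9% of all genes tested. The MYB61 call was lost without 15 DPA replicate 1 (adjusted p = 0.062), 20 DPA replicate 1 (0.067) or 20 DPA replicate 2 (0.053), with a range of 9.4e-05 to 0.067 over all alternatives. KNAT7, a homeobox protein of secondary walls in Arabidopsis, averaged 43.4 CPM at 20 DPA and 29 CPM at 15 DPA and was not called (log2 fold change 0.58, adjusted p = 0.1). MYB46 and NAC007 fell below the read minimum, with mean levels of 0 CPM at 20 DPA and 0.0962 and 0.142 CPM at 15 DPA.

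TBL43 lies next to MYB86 in the annotation (D08, 41785497 to 41789218), with 59416 bases between them. Members of its family add acetyl groups to xylan, but the substrate of TBL43 was not tested. It had 12.3, 8.75 and 5.44 CPM at 20 DPA and 0, 0.417 and 0.237 CPM at 15 DPA (log2 fold change 5.28, SE 0.66, adjusted p = 0.0036). Both neighbors were thus low in every 15 DPA library, and both had their lowest 20 DPA value in replicate 3. Of the 5 tested genes for xylan and lignin it was the only one called. CCR1, a cinnamoyl-CoA reductase of the lignin pathway, averaged 36.4 CPM at 20 DPA and 18.4 CPM at 15 DPA (log2 fold change 0.98, adjusted p = 0.0075), just under the fold threshold, and passed it at 1.01 to 1.09 in the 4 fits without 15 DPA replicate 2 or 3 or without 20 DPA replicate 1 or 3.

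**Figure D2:**
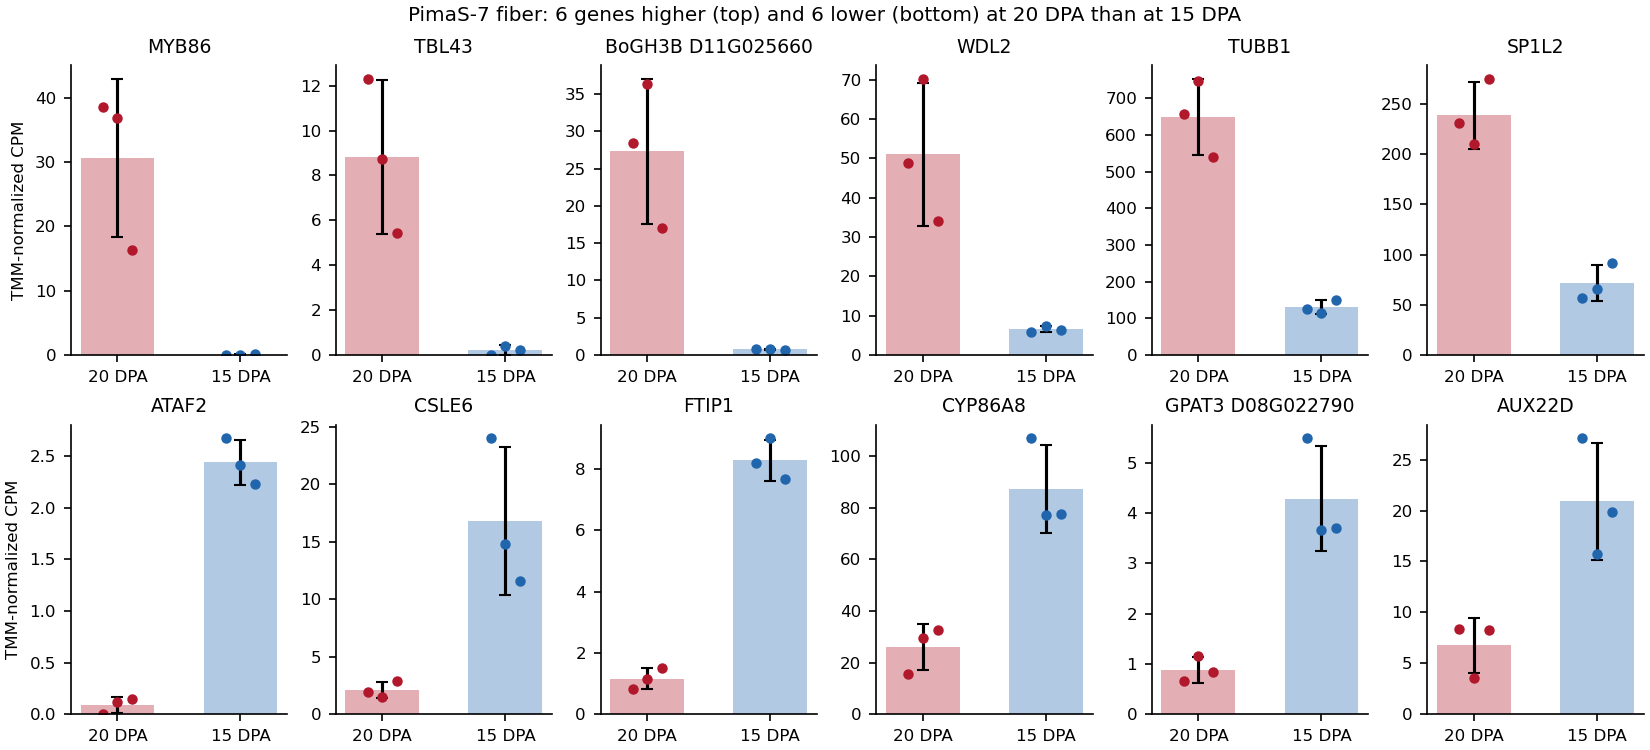
TMM-normalized CPM of 6 genes higher (top row) and 6 genes lower (bottom row) in PimaS-7 at 20 DPA (left, red) than at 15 DPA (right, blue), where points are libraries, bars the mean and error bars the SD of 3 libraries. In each panel the groups do not overlap, as for 30.9% of all genes tested. MYB86 sits at 16.4 to 38.5 CPM at 20 DPA and at 0 to 0.089 CPM at 15 DPA.

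Of 8 tested genes for cellulose, 2 were called lower and none of the other 6 was called, with a median log2 fold change of -0.18. The only genes among the 8 named as cellulose synthases were CESA3 and CESA6. Cellulose synthases outside the named intervals were not covered, so these counts do not describe cellulose synthesis as a whole. CESA3, a catalytic subunit of the primary wall complex in Arabidopsis, averaged 487 CPM at 20 DPA and 427 CPM at 15 DPA (log2 fold change 0.18, adjusted p = 0.34), and CSI1, which links the complex to microtubules, 289 CPM and 315 CPM. The genes that fell were a cellulose synthase-like gene and an endoglucanase. CSLE6 (Gbar_D11G025800) had 1.89, 1.5 and 2.91 CPM at 20 DPA and 24, 14.8 and 11.6 CPM at 15 DPA (log2 fold change -3.01, SE 0.35, adjusted p = 0.0027). A neighboring copy, Gbar_D11G025810, averaged 0.998 CPM at 20 DPA and 1.07 CPM at 15 DPA and was not called. Endoglucanase 6, of a family that cuts beta-1,4-glucan, had 5.73, 3.38 and 5.48 CPM at 20 DPA and 16.1, 12 and 10.7 CPM at 15 DPA (log2 fold change -1.41, SE 0.25, adjusted p = 0.013). Sucrose synthase SUS2, which supplies UDP-glucose, averaged 19.7 CPM at 20 DPA and 11.2 CPM at 15 DPA without a call (adjusted p = 0.28). None of 8 tested enzymes of nucleotide sugars was called in either direction by edgeR or DESeq2, with log2 fold changes between -0.22 and 0.57. At an unadjusted p under 0.05, 1 of them passed, where 11137 of all 46299 genes tested did in edgeR with DESeq2 size factors.

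Among enzymes of the wall matrix, 2 of 4 tested expansin and xyloglucan genes (median log2 fold change 0.89) and 2 of 9 tested pectin genes (median -0.05) were higher, with 0 lower in either list. Outside these lists, a pair of adjacent genes matched to the beta-glucosidase BoGH3B of a gut bacterium, 2982 bases apart on D11, was higher as well. The first, Gbar_D11G025660, had 28.5, 36.4 and 17.1 CPM at 20 DPA, against 0.794, 0.77 and 0.653 CPM at 15 DPA (log2 fold change 5.2, SE 0.32, adjusted p = 0.0006). The second, Gbar_D11G025650, had 71.8, 73.4 and 47.6 CPM at 20 DPA and 2.2, 3.75 and 4.6 CPM at 15 DPA (log2 fold change 4.18, SE 0.29). Again the third 20 DPA library was the lowest of its group in both.

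Xyloglucan endotransglucosylases cut and rejoin xyloglucan chains. XTH30 had 11.5, 11 and 10.4 CPM at 20 DPA and 2.35, 2.95 and 2.94 CPM at 15 DPA (log2 fold change 2, SE 0.16, adjusted p = 0.0011). XTH31 averaged 2.16 ± 0.241 CPM at 20 DPA and 0.498 ± 0.238 CPM at 15 DPA (SD, n = 3 each, log2 fold change 2.1). The XTH30 groups were tight and far apart, while XTH31 was at a low level, and its call was lost without 15 DPA replicate 1 (adjusted p = 0.069) or replicate 3 (0.06) and without 20 DPA replicate 1 (0.053) or replicate 2 (0.071). Expansin-like EXLB1 averaged 6.33 CPM at 20 DPA and 9.78 CPM at 15 DPA and was not called, and 8 of the 11 genes of this list in the count table stayed under 1 CPM in all 6 libraries.

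Pectin acetylesterases remove acetyl groups from pectin, and both tested copies, which are neighbors on D08 with 39389 bases between them, were higher. PAE7 had 210, 98 and 131 CPM at 20 DPA and 34.7, 47.5 and 50.5 CPM at 15 DPA (log2 fold change 1.73, SE 0.28, adjusted p = 0.0096). PAE8 had 7.31, 3.72 and 2.91 CPM at 20 DPA and 0.794, 0.577 and 0.682 CPM at 15 DPA (log2 fold change 2.76, SE 0.41). In both the first 20 DPA library was the highest. A polygalacturonase gene of the same list, Gbar_D08G012870, had 8.61, 7.47 and 16 CPM at 20 DPA and 1.41, 3.24 and 174 CPM at 15 DPA, where 1 library set the mean. Its log2 fold change was -2.47 with all libraries (adjusted p = 0.36) and 2.18 without 15 DPA replicate 3 (adjusted p = 0.046).

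The microtubule list held 3 higher genes of 18 tested and 0 lower, with a median log2 fold change of 0.06 against 0.01 over all genes tested. All 3 are candidates that the study chose through coexpression modules built on these same samples, so their calls are no independent evidence. TUBB1, a beta tubulin, had 657, 748 and 540 CPM at 20 DPA and 124, 115 and 151 CPM at 15 DPA (log2 fold change 2.31, SE 0.16, adjusted p = 0.00073). Per length it reached 283 ± 41.8 FPKM at 20 DPA and 57.9 ± 6.55 FPKM at 15 DPA (SD, n = 3 each). WDL2 (Gbar_D11G032910), of the WVD2 family that binds and bundles microtubules in Arabidopsis, had 48.8, 70.2 and 34 CPM at 20 DPA and 5.92, 7.38 and 6.35 CPM at 15 DPA (log2 fold change 2.95, SE 0.26, adjusted p = 0.0013). SP1L2, of the SPIRAL1 family that keeps cortical microtubules in order in Arabidopsis, had 231, 210 and 275 CPM at 20 DPA and 57, 65.6 and 91.9 CPM at 15 DPA (log2 fold change 1.74, SE 0.19, adjusted p = 0.0023). These are the genes of the primer pairs above, and in all 3 every 20 DPA library exceeded every 15 DPA library. Groups did not overlap for 30.9% of all genes tested and for 1359 of the 1362 genes called higher.

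Other tubulins moved less or varied more. TUBB5 had 927, 1110 and 932 CPM at 20 DPA and 503, 551 and 674 CPM at 15 DPA, with an adjusted p of 0.011 but a log2 fold change of 0.78, under the threshold. Beta-9 tubulin (Gbar_D08G020390) averaged 909 ± 201 FPKM at 20 DPA and 473 ± 224 FPKM at 15 DPA, above TUBB5 with 392 ± 21.4 and 232 ± 31.2 FPKM and above TUBB1, but its change was not called (log2 fold change 0.97, adjusted p = 0.13). It was called without 15 DPA replicate 3 (1.37, adjusted p = 0.05). A second WDL2 copy on D11, Gbar_D11G027420, averaged 4.54 CPM at 20 DPA and 1.83 CPM at 15 DPA (log2 fold change 1.3, adjusted p = 0.059), called by DESeq2 at an adjusted p of 0.014 and by edgeR without 15 DPA replicate 3 at 0.038, and the copy on D08 averaged 5.97 CPM and 7.56 CPM (log2 fold change -0.35, adjusted p = 0.32). CLASP, which stabilizes growing microtubule ends, averaged 71.8 CPM at 20 DPA and 45.8 CPM at 15 DPA (log2 fold change 0.64, adjusted p = 0.041).

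Of 9 actin genes tested, 1 was called. MYOB1, a receptor that tethers myosin to vesicles in Arabidopsis, had 38.8, 34.1 and 32.6 CPM at 20 DPA and 13.4, 13.6 and 15 CPM at 15 DPA (log2 fold change 1.32, SE 0.12, adjusted p = 0.0013). ACT7, an actin, averaged 793 CPM at 20 DPA and 882 CPM at 15 DPA (log2 fold change -0.16, adjusted p = 0.43). The alpha subunit of the F-actin capping protein, a candidate of the study with At3g05520 as its match, had 156, 213 and 190 CPM at 20 DPA and 148, 151 and 179 CPM at 15 DPA, and its groups overlapped (adjusted p = 0.36).

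**Figure D3:**
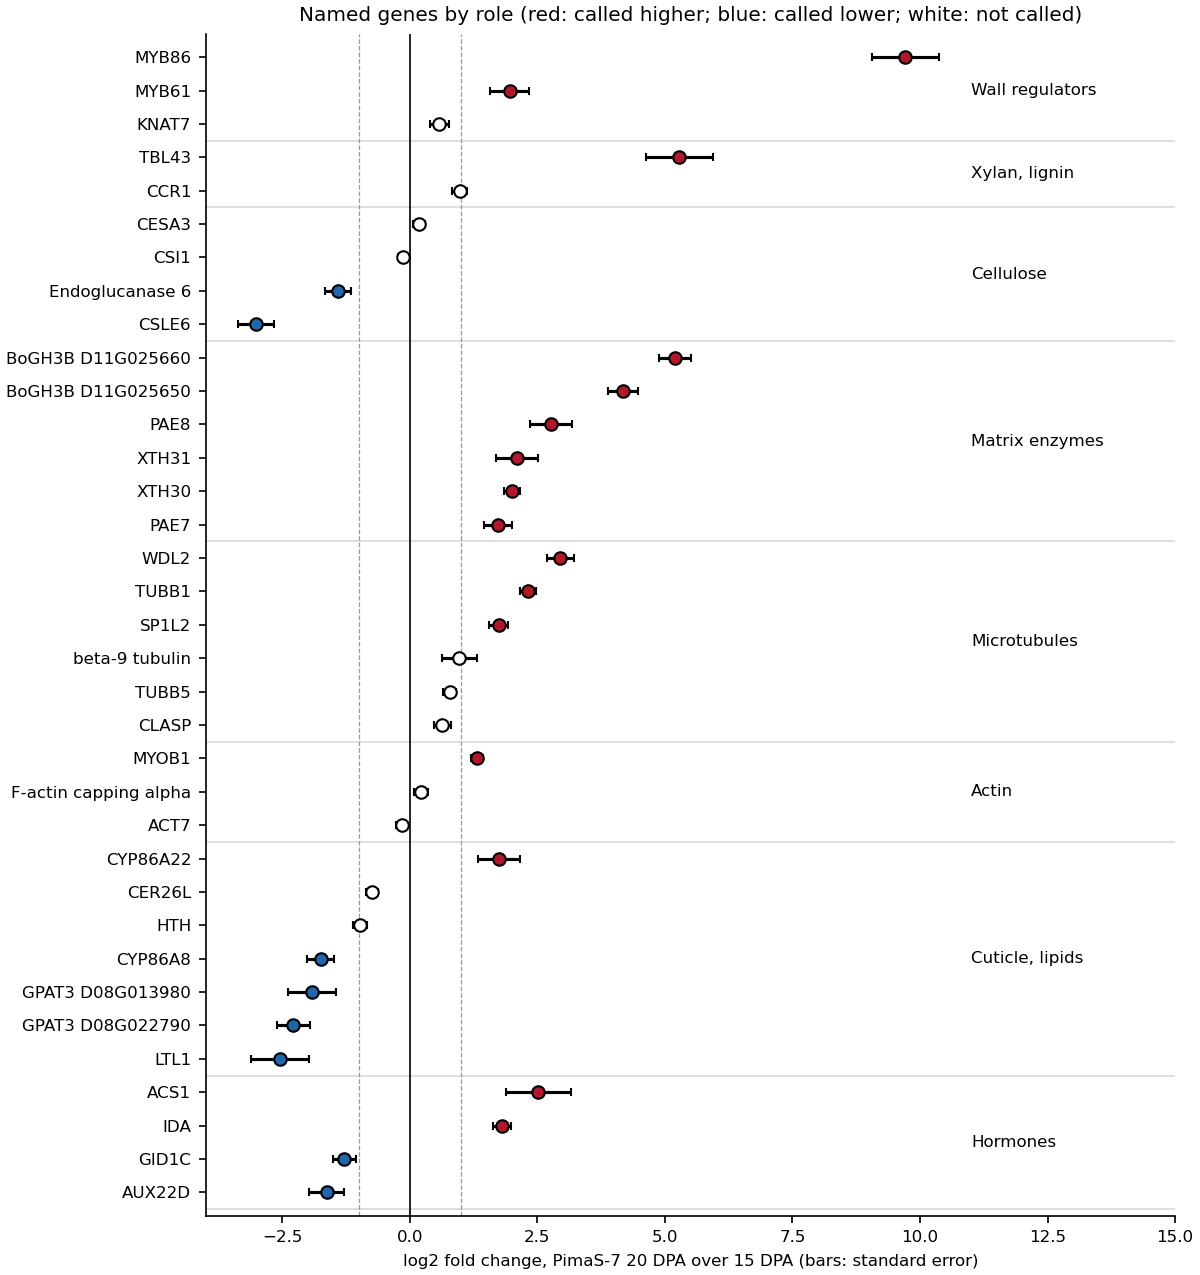
Log2 fold change of PimaS-7 at 20 DPA over 15 DPA for named genes grouped by role, with standard errors as bars and dashed lines at the fold threshold of 1 log2 unit (red called higher, blue called lower, white not called). The genes drawn in red reach 9.71 for MYB86, and 4 of 7 cuticle and lipid genes drawn are blue, down to -2.55 for LTL1.

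Of 9 tested genes of the cuticle and of long-chain lipids, 4 were lower and 1 higher at 20 DPA, with a median log2 fold change of -0.97, and the summed level of the list was 267 to 336 CPM at 20 DPA and 549 to 571 CPM at 15 DPA. CYP86A8, a fatty acid omega-hydroxylase of cutin synthesis in Arabidopsis, had 15.7, 29.7 and 32.7 CPM at 20 DPA and 107, 77.2 and 77.5 CPM at 15 DPA (log2 fold change -1.75, SE 0.27, adjusted p = 0.0075). Both copies of the acyltransferase GPAT3 were lower. Gbar_D08G022790 had 0.652, 1.16 and 0.846 CPM at 20 DPA and 5.49, 3.66 and 3.71 CPM at 15 DPA (log2 fold change -2.28, SE 0.32, adjusted p = 0.0052). Gbar_D08G013980 averaged 0.527 CPM at 20 DPA and 1.99 CPM at 15 DPA (log2 fold change -1.92, SE 0.47, adjusted p = 0.043), a call that no leave-one-out fit kept (adjusted p = 0.057 to 0.14).

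The other members of that list moved both ways. LTL1, a GDSL lipase, had 1.03, 0.15 and 0.625 CPM at 20 DPA and 2.63, 4.87 and 3.23 CPM at 15 DPA (log2 fold change -2.55, SE 0.57, adjusted p = 0.031), and lost its call without any 15 DPA library (adjusted p = 0.062 to 0.097) or without 20 DPA replicate 3 (0.082). HOTHEAD (HTH), an oxidoreductase needed for cutin in Arabidopsis, averaged 124 ± 22.2 CPM at 20 DPA and 242 ± 21.8 CPM at 15 DPA (SD, n = 3 each), with a log2 fold change of -0.97 and an adjusted p of 0.0066, just under the fold threshold, which it passed without 15 DPA replicate 1 (-1.04) or 20 DPA replicate 3 (-1.1). CER26L, of a family of wax chain elongation, averaged 62.9 CPM at 20 DPA and 105 CPM at 15 DPA (log2 fold change -0.74, adjusted p = 0.0063). The 1 gene higher was CYP86A22, with 4.7, 3.87 and 1.8 CPM at 20 DPA and 0.902, 1.31 and 0.86 CPM at 15 DPA (log2 fold change 1.75, SE 0.41, adjusted p = 0.036), and it was called in no fit that left out a library other than 20 DPA replicate 3 (adjusted p = 0.062 to 0.12).

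Of 10 tested genes for auxin, gibberellin and brassinosteroid, 2 were lower and 0 higher, with a median log2 fold change of -0.02. AUX22D, a repressor of the auxin response, had 8.37, 3.6 and 8.28 CPM at 20 DPA and 27.1, 15.7 and 19.9 CPM at 15 DPA (log2 fold change -1.63, SE 0.34, adjusted p = 0.023). GID1C, a gibberellin receptor, had 3.12, 2.22 and 1.99 CPM at 20 DPA and 6.64, 5.32 and 5.85 CPM at 15 DPA (log2 fold change -1.28, SE 0.23, adjusted p = 0.014). Each was lower in every 20 DPA library than in any 15 DPA library, as were 1250 of the 1252 genes called lower. Over all genes tested, the groups did not overlap for 30.9%. AUX22D lost its call without 15 DPA replicate 1 (adjusted p = 0.078) or replicate 3 (0.057), and GID1C without 15 DPA replicate 1 (0.054) or 20 DPA replicate 2 (0.054). The brassinosteroid receptor BRI1 averaged 28 CPM at 20 DPA and 28.8 CPM at 15 DPA.

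Of 8 tested genes for abscisic acid, jasmonate and ethylene, 2 were higher and 0 lower. IDA, a precursor of a peptide that triggers abscission in Arabidopsis, had 8.37, 11.6 and 11.5 CPM at 20 DPA and 3.18, 2.66 and 3.12 CPM at 15 DPA (log2 fold change 1.81, SE 0.18, adjusted p = 0.002). ACS1, which makes the ethylene precursor ACC, had 4.56, 1.76 and 0.956 CPM at 20 DPA and 0.361, 0.609 and 0.297 CPM at 15 DPA (log2 fold change 2.52, SE 0.64, adjusted p = 0.048). The ACS1 values spread widely at 20 DPA, and its call was lost without any library other than 20 DPA replicate 3 (adjusted p = 0.083 to 0.15). EIN3, the main factor of the ethylene response, averaged 64.8 CPM at 20 DPA and 48.8 CPM at 15 DPA and was not called.

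Of 8 tested transport genes 3 were higher. At1g54730 (Gbar_D11G028440), matched to a sugar transporter of the ERD6 family, had 5.73, 5.67 and 6.11 CPM at 20 DPA and 1.16, 1.41 and 1.28 CPM at 15 DPA (log2 fold change 2.18, SE 0.2, adjusted p = 0.0014). The zinc transporter ZIP6 averaged 14.7 CPM at 20 DPA and 5.47 CPM at 15 DPA (log2 fold change 1.43, SE 0.2). The copper pump HMA5 had 2.95, 2.44 and 0.515 CPM at 20 DPA and 0, 0 and 0.208 CPM at 15 DPA (adjusted p = 0.04), a call lost without 15 DPA replicate 1 (0.11) or replicate 2 (0.098) and without 20 DPA replicate 1 (0.12) or replicate 2 (0.11). Of the photosynthesis list PSBW alone was called, at 2.18 ± 0.117 CPM at 20 DPA and 0.769 ± 0.226 CPM at 15 DPA (SD, n = 3 each, log2 fold change 1.49), and was lost in 5 of the 6 leave-one-out fits, all but that without 15 DPA replicate 2 (adjusted p = 0.078 to 0.095).

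Outside the lists, the largest changes among named genes at or above 2 CPM included both regulators and enzymes. CYP94A1, a fatty acid hydroxylase of the P450 superfamily, averaged 17 CPM at 20 DPA and 3.5 CPM at 15 DPA (log2 fold change 2.27, SE 0.27, adjusted p = 0.0032). LSH6, of a family of developmental regulators, averaged 9.17 CPM and 2.21 CPM (log2 fold change 2.05, SE 0.19), and CPRF2, a bZIP factor in parsley, 2.65 CPM and 0.256 CPM (log2 fold change 3.34, SE 0.46). WRKY23 had 4.18, 1.24 and 1.88 CPM at 20 DPA and 0.758, 0.545 and 0.386 CPM at 15 DPA (adjusted p = 0.048), a call lost without any library other than 20 DPA replicate 2 (adjusted p = 0.073 to 0.15).

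On the lower side stood ATAF2 (NAC081), a NAC factor of stress and wound responses in Arabidopsis, with 0, 0.113 and 0.147 CPM at 20 DPA and 2.67, 2.41 and 2.23 CPM at 15 DPA (log2 fold change -4.78, SE 0.66, adjusted p = 0.0051). FTIP1, which in Arabidopsis moves the FT protein between cells, had 0.823, 1.16 and 1.51 CPM at 20 DPA and 8.19, 9.01 and 7.68 CPM at 15 DPA. At 20 DPA, ATAF2 was near the lower end of detection and FTIP1 was at a low level. CYP88D6, matched to a beta-amyrin oxidase of licorice, averaged 1.66 CPM at 20 DPA and 9.57 CPM at 15 DPA (log2 fold change -2.53, SE 0.3, adjusted p = 0.0028), and accD, a subunit of the acetyl-CoA carboxylase that starts fatty acid synthesis, 2.87 CPM and 9.93 CPM (log2 fold change -1.8, SE 0.26, adjusted p = 0.0056). Smaller decreases were called for a DnaJ homolog (SPBC543.02c, log2 fold change -1.71), zinc finger protein ZFP10 (-1.62), a basic 7S globulin (Gbar_D08G020900, -1.49) and the methyltransferase ERD3 (-1.81). The call of ZFP10 was lost without 15 DPA replicate 1 (adjusted p = 0.059) or 20 DPA replicate 3 (0.053), and that of ERD3 without 15 DPA replicate 1 (0.078) or replicate 2 (0.073) and without 20 DPA replicate 1 (0.064) or replicate 2 (0.072).

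In several lists of general cell functions no member was called, where the share of all genes tested was 5.65%. edgeR called 0 of 14 tested cytosolic ribosomal proteins, 11 chaperones, 7 proteasome subunits, 10 redox enzymes, 12 cell cycle and histone genes and 8 proton pump and aquaporin genes, with list medians between -0.17 and 0.2 log2 units, and also 0 of 3 arabinogalactan proteins, 3 ethylene response factors and 2 seed and embryo genes. At an unadjusted p under 0.05, between 0 and 2 genes of each of these lists passed, and DESeq2 called 0 in each. Over all genes, 11137 of 46299 tested passed that level in edgeR with DESeq2 size factors. The DnaJ homolog called lower above was not on the chaperone list, although another DnaJ protein, ERDJ3B, was. The count for chaperones thus depends on which genes were listed. PIP1-2, an aquaporin, was the most abundant of the pumps and aquaporins in counts, with 1600 CPM at 20 DPA and 2780 CPM at 15 DPA (log2 fold change -0.8, adjusted p = 0.098).

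Genes called between the stages differed in where in fiber development their mean was highest, which is given as a description since the same libraries enter. Of the genes higher at 20 DPA, 18.9% had their highest PimaS-7 mean at 20 DPA itself, while 37.4% had it at 25 DPA, 11.9% at 30 and 25.7% at 35 DPA. Of the genes lower at 20 DPA, 11.3% had it in ovules, 13.9% at 5 DPA, 38% at 10 DPA and 31.2% at 15 DPA. Over all genes tested the shares were 21.7% in ovules, then 9.52%, 7.56%, 11.4%, 7.31%, 18.5%, 5.32% and 18.7% at the 7 fiber stages in order.

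**Figure D4:**
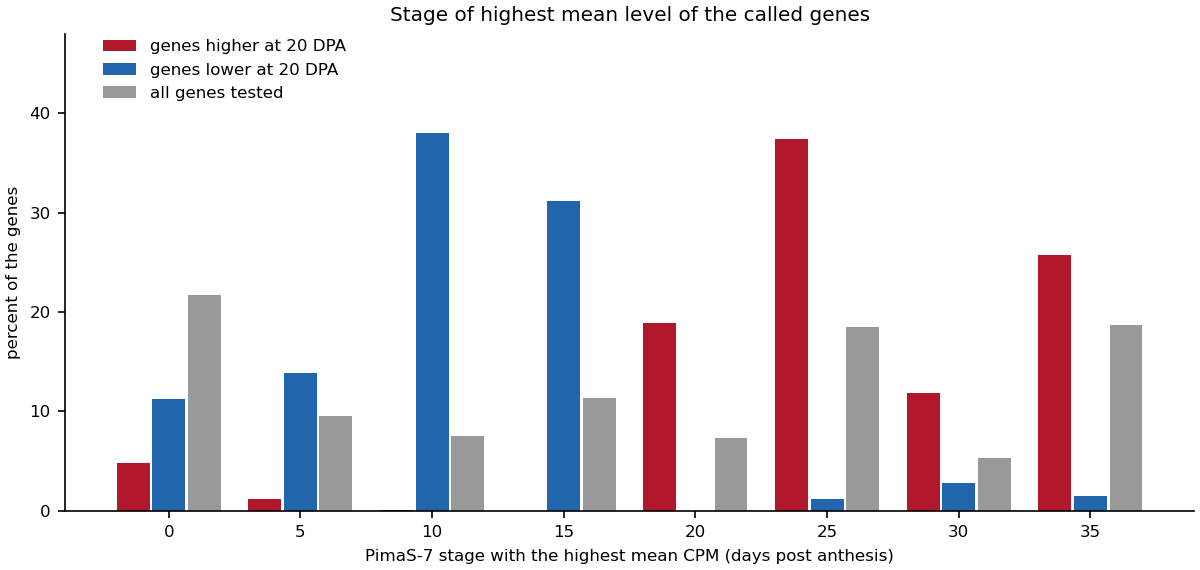
Percent of genes whose highest mean CPM over the 8 PimaS-7 stages fell at each stage, for genes higher at 20 DPA (red), genes lower at 20 DPA (blue) and all genes tested (gray). The red bars are tallest at 25 DPA (37.4%) and the blue bars at 10 DPA (38%).

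MYB86, TBL43, WDL2 and TUBB1 had their highest mean at 25 DPA, after the stages compared. MYB86 averaged 0.0615 CPM at 10 DPA, 0.0297 CPM at 15 DPA, 30.6 CPM at 20 DPA, 441 CPM at 25 DPA, 119 CPM at 30 DPA and 49.7 CPM at 35 DPA. TBL43 averaged 0.218 CPM at 15 DPA, 8.85 CPM at 20 DPA and 258 CPM at 25 DPA, and WDL2 6.55, 51 and 544 CPM at those stages. TUBB1 averaged 5.77 CPM at 10 DPA, 130 CPM at 15 DPA, 648 CPM at 20 DPA and 3620 CPM at 25 DPA, and stood at 68.7 CPM at 35 DPA. SP1L2 differed from these in having its highest mean, 782 ± 148 CPM, at 35 DPA, and PAE7 in having it at 20 DPA itself.

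Some of the genes that fell were past their highest mean by 15 DPA, while others had it at 15 DPA itself. CYP86A8 averaged 103 CPM at 10 DPA, 87.2 CPM at 15 DPA, 26 CPM at 20 DPA and 1.16 CPM at 25 DPA. FTIP1 averaged 16 CPM at 10 DPA, 8.3 CPM at 15 DPA, 1.17 CPM at 20 DPA and 0.115 CPM at 25 DPA. CSLE6 had its highest mean, 16.8 ± 6.4 CPM, at 15 DPA and 2.1 ± 0.726 CPM at 20 DPA, but 7.97 ± 11.5 CPM at 25 DPA, where the libraries spread widely. ATAF2 had its highest mean at 15 DPA (2.43 CPM) and averaged 2.01 ± 1.27 CPM at 30 DPA.

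**Figure D5:**
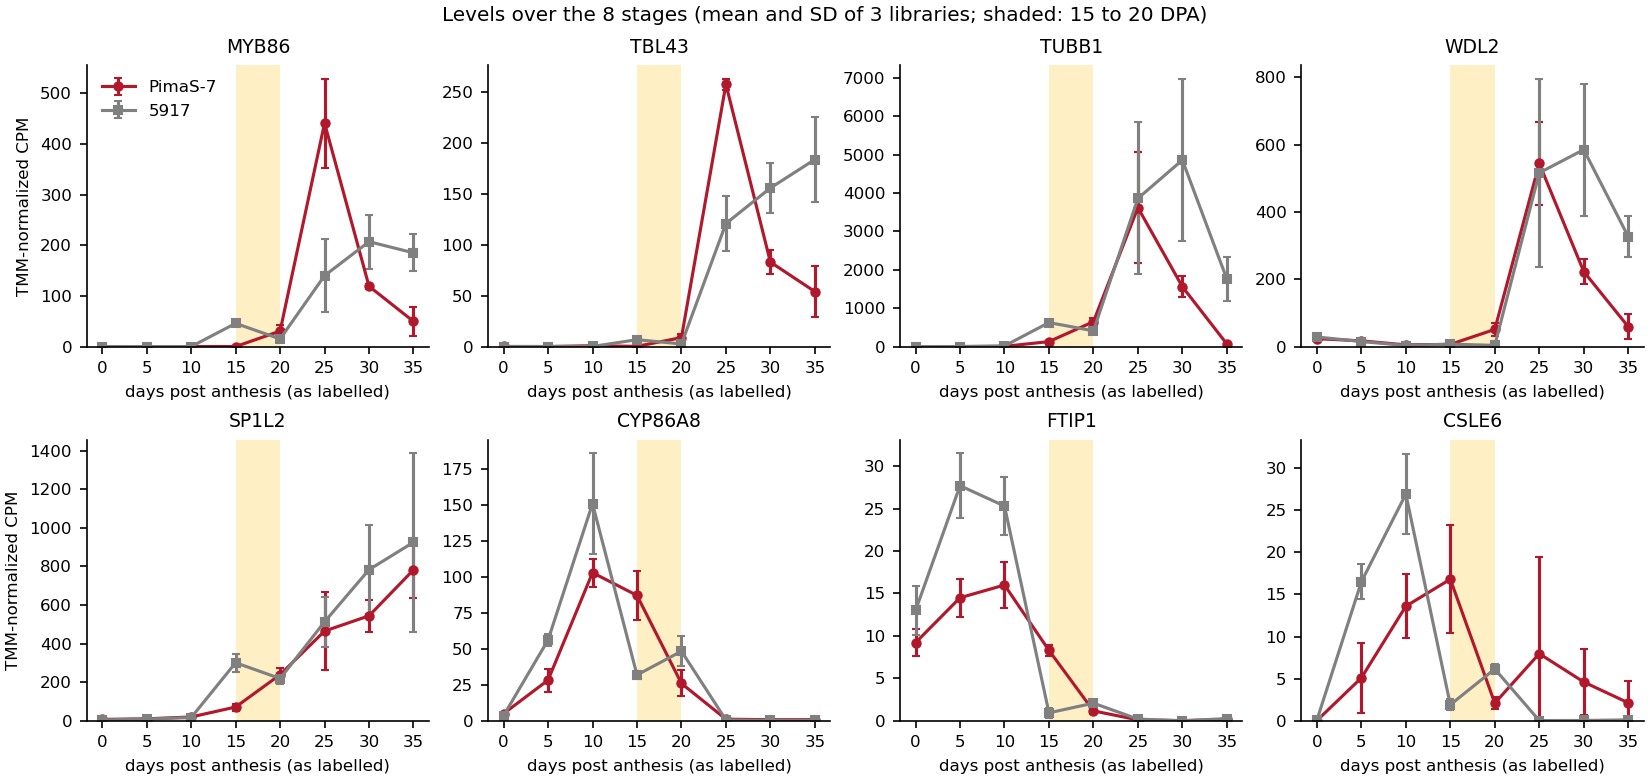
Mean TMM-normalized CPM with SD of 3 libraries at the 8 labelled stages for 8 genes, in PimaS-7 (red circles) and 5917 (gray squares), with the 15 to 20 DPA interval shaded. In PimaS-7 the mean of MYB86 goes over 0.0297, 30.6 and 441 CPM at 15, 20 and 25 DPA and that of CYP86A8 over 87.2, 26 and 1.16 CPM, while in 5917 both turn the other way within the shaded interval.

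The coexpression modules of the study were built on these same samples and are no independent evidence of a direction. Against 2.94% higher and 2.70% lower over all genes tested, the brown module had 24.8% of 1200 tested genes higher and 1% lower, and the pink module 22% of 610 higher and 0 lower. The purple module had 20.8% of 872 genes lower and 0.917% higher. The green module held 44 genes higher and 12 lower of 514, the yellow 59 and 2 of 704, and the turquoise 11 and 0 of 192. The black module (2 higher of 86) and the red module (2 higher of 41) had 0 lower. Under module names the study also lists strongly connected genes. Of these, the red connected list had 94 higher and 0 lower of 285 tested, and the brown connected list 189 and 2 of 561. In the green connected list 22 were higher and 0 lower of 456, and in the black connected list 9 and 0 of 183. The red and black connected lists, with 287 and 183 genes, are larger than the modules of the same name, with 41 and 109. Why they differ was not tested. Of the blue and magenta modules, which were held only in part, 28 and 39 genes were higher and 111 and 102 lower, of 1988 and 1997 tested.

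The PimaS-7 change was set against that of 5917 over the same labelled days. In a test of the difference over 12 libraries, 1650 genes had a positive and 1614 a negative difference (log2 fold change of PimaS-7 minus that of 5917), 3.42% and 3.35%, and 6.77% together, of 48185 genes tested. MYB86 had 12.6, 13.4 and 19.3 CPM in 5917 labelled 20 DPA and 50.5, 46.2 and 40.7 CPM in 5917 labelled 15 DPA, and its change differed by 11.31 log2 units (SE 0.68, adjusted p = 6.6e-06). TUBB1 had 442, 366 and 422 CPM in 5917 labelled 20 DPA and 658, 627 and 593 CPM labelled 15 DPA, a difference of 2.93 log2 units (SE 0.19, adjusted p = 7.3e-06). In both genes 5917 was lower at the later label, where PimaS-7 was higher.

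CYP86A8 and CSLE6, which fell in PimaS-7, were higher in 5917 at the later label. CYP86A8 had 60.2, 44.4 and 40.6 CPM in 5917 labelled 20 DPA and 29.3, 34.9 and 31.4 CPM labelled 15 DPA, and its change differed by -2.35 log2 units (SE 0.34, adjusted p = 0.00097). CSLE6 had 6.6, 5.48 and 6.38 CPM in 5917 labelled 20 DPA and 1.16, 2.14 and 2.43 CPM labelled 15 DPA, a difference of -4.68 log2 units (SE 0.48, adjusted p = 9.8e-05). The 5917 profiles stood in the reverse order of their labels, as given above, so the size of these differences depends on those labels. How much of each would remain with the 5917 labels exchanged was not tested. MYB86 averaged 15.1 and 45.8 CPM in 5917 labelled 20 and 15 DPA, against 30.6 and 0.0297 CPM in PimaS-7. CSLE6 averaged 6.15 and 1.91 CPM in 5917, against 2.1 and 16.8 CPM in PimaS-7. Not every gene that fell in PimaS-7 had the reverse order in 5917. Endoglucanase 6 averaged 4.41 CPM in 5917 labelled 20 DPA and 5.04 CPM labelled 15 DPA, and Gbar_A08G023030 was at 0 CPM and 6.63 CPM, while accD averaged 6.1 and 6.02 CPM. Of the genes that the naming rule took, 7 were called within PimaS-7 without a call for the difference, which were Endoglucanase 6 (-1.2, adjusted p = 0.23), PAE8 (3.52, adjusted p = 0.061), ERD3 (-2.42, adjusted p = 0.07), ACS1 (3.06, adjusted p = 0.077), LTL1 (-3.05, adjusted p = 0.22), WRKY23 (2.51, adjusted p = 0.27) and Gbar_A08G023030, at 0 counts at 20 DPA in both cultivars (adjusted p = 1).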

How the data were processed

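RNA of PimaS-7 and 5917 was sequenced at 8 stages in 48 libraries. The authors mapped cleaned reads with HISAT2 to the HAU v2.0 genome, quantified them with StringTie (versions not given in the sources used here) and deposited raw counts and FPKM values per gene. The strand setting, how the whole-number counts were derived and the assignment of reads shared by gene copies are not given in the sources used here, which leaves close copies uncertain. Counts of the 6 libraries were filtered (filterByExpr, count minimum 10), scaled by TMM and tested with edgeR 4.0.16 in R 4.3.3 (quasi-likelihood, Benjamini-Hochberg, adjusted p of at most 0.05 and absolute log2 fold change of at least 1), and 12 libraries were fitted for the cultivar difference. Printed CPM were scaled over 48 libraries. Each SE was derived as the absolute log2 fold change divided by the square root of the F statistic. It is approximate, above all where a group has few counts or none. DESeq2 1.42.0, limma 3.58.1 on the deposited FPKM (pseudocount 1 or 0.1), a replicate block, 1 fit of all libraries and leaving out each library were alternatives. Tests were checked on simulated data. The genes named were the list members called, the 15 described genes per direction with the largest change at or above 2 CPM and groups that did not overlap, 2 genes per direction without a name by the same rule at or above 10 CPM, and 5 candidates of the study. Uncalled genes named as contrasts were chosen after their values were seen. Members and lists were chosen with earlier results of these data known.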

Additional observations from a re-analysis of the deposited data

Results flagged for a closer look

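The change of PimaS-7 between the stages differed from that of 5917, by a test of the difference over 12 libraries with edgeR, for 41 of the genes named, and every value below is that difference in log2 units, PimaS-7 minus 5917. The 5917 libraries labelled 20 DPA resembled 10 DPA more than those labelled 15 DPA did. Each value depends on the 5917 labels, and whether they were exchanged was not tested.

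Among genes of the wall, MYB86 differed by 11.31, TBL43 by 6.66, the BoGH3B copies by 6.33 (Gbar_D11G025660) and 4.83 (Gbar_D11G025650), XTH31 by 3.33, MYB61 by 3.3, XTH30 by 2.48, PAE7 by 2.32 and CCR1 by 1.28. CSLE6 differed the other way, by -4.68. Among microtubule and actin genes the difference was 4.0 for WDL2 (Gbar_D11G032910), 2.93 for TUBB1, 2.21 for SP1L2, 1.94 for MYOB1, 1.65 for the WDL2 copy Gbar_D11G027420 and 1.07 for TUBB5. TUBB5, CCR1, HTH and that WDL2 copy were called here without a call in PimaS-7 alone.

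In the cuticle and lipid list the differences were -3.54 and -2.85 for the GPAT3 copies Gbar_D08G022790 and Gbar_D08G013980, -2.35 for CYP86A8, -1.22 for HTH and 2.95 for CYP86A22. Of the lipid enzymes outside it, accD gave -1.8 and CYP94A1 2.73. Hormone and signal genes gave -1.86 for GID1C, -1.85 for AUX22D and 2.04 for IDA. Transport genes gave 7.1 for HMA5, 1.66 for ZIP6 and 1.33 for the sugar transporter At1g54730, and PSBW gave 1.79.

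Of the remaining genes, CPRF2 differed by 3.69 and LSH6 by 3.15. Negative differences were found for NAC081 (ATAF2, -5.62), FTIP1 (-3.96), CYP88D6 (-3.48), ZFP10 (-2.36), the DnaJ homolog SPBC543.02c (-1.98) and the basic 7S globulin Gbar_D08G020900 (-1.48). The genes without a name differed by 15.6 (Gbar_D04G014000), 14.08 (Gbar_A04G009370) and -12.14 (Gbar_D06G010680), and since each of them was at 0 counts in 1 PimaS-7 stage, these fitted values depend on the prior count and are no bounds.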

How the results depend on the processing

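DESeq2, DESeq2 size factors, no count filter and limma on log2(FPKM + 0.1) each gave counts of genes higher and lower within 1.5 times those of the edgeR test. Counts were lower with limma on log2(FPKM + 1), at 733 higher, 692 lower and 1425 in all of 39361 genes tested, and without its FPKM filter, at 635, 654 and 1289. The cause was not tested. Leaving out 1 library gave 854 to 1344 genes higher, 804 to 1246 lower and 1676 to 2590 in all, and the count moved by over 1.5 times without 15 DPA replicate 1 (872 higher, 804 lower), 20 DPA replicate 1 (854 higher) or 20 DPA replicate 2 (869 higher). The replicate numbers did not pair the samples (correlation of deviations -0.163, -0.088 and 0.002 for equal numbers, and no library correlated best with its own number), and the replicate block gave 818 higher, 817 lower and 1635 in all. For the difference between the cultivars, 1 fit of all 48 libraries gave 788 negative genes and 1958 in all, limma on log2(FPKM + 1) gave 1008 positive genes and without its filter 915 and 2094 in all, and leaving out 1 library gave 1294 to 1721 positive and 1260 to 1662 negative genes.

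Of 44 named genes called in PimaS-7, 21 kept their call in every alternative and none changed sign. The most calls were lost with limma on log2(FPKM + 1) without a filter (17), in 1 fit of all 48 libraries (14, with CSLE6 at an adjusted p of 0.052) and without 15 DPA replicate 1 (14). The replicate block lost 8 and added the beta-9 tubulin Gbar_D08G020390 (1.07, adjusted p = 0.046). Of 41 named genes called for the cultivar difference, 24 kept that call in every alternative and none changed sign, with 14 lost in 1 fit of all 48 libraries and 7 with limma on log2(FPKM + 1) without a filter. The polygalacturonase Gbar_D08G012870 changed sign, at 0.22 with the replicate block, and over the fits that left out 1 library it ran from -3.05 to 2.18, with the highest value without 15 DPA replicate 3. Its cultivar difference ran from -2.52 (without 5917 15 DPA replicate 1) to 8.89, and that of CSI1 from -0.01 (without PimaS-7 20 DPA replicate 2) to 0.15. Simulated data at these depths had 100 changed genes of each size among 46299. They gave 56% of changes of 1.5 log2 units and 81% of changes of 3, with 10 false calls. For the cultivar difference, 55% of changes of 2 and 75% of changes of 4 were found among 48185 genes, with 6 false calls. Changes of each size can thus be missed. Recovery was not split by count level, and fewer genes were changed in the simulation than were called in the data.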
